A study of Rattus norvegicus with 9 samples.

Results

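The heat shock proteins and endoplasmic reticulum (ER) chaperones of the rat hippocampus were examined in 3 groups of animals. The genes were taken by name alone: every gene in the count table named Hspa, Hspb, Hspd, Hspe, Hsph or Hsp90, every heat shock factor (Hsf), every Dnaja, Dnajb, Dnajc and Pdia gene, and Canx and Calr, with pseudogene names left out. This gave 85 of the 30562 genes in the table, each with 1 identifier. By role they were 11 cytosolic HSP70 and HSP110 genes, 2 HSP90 genes, 10 mitochondrial genes, 21 ER genes, 27 other J-domain genes, 5 heat shock factor names and 9 names beginning with Hspb.

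Hippocampal poly(A) RNA of male Sprague-Dawley rats was sequenced in 9 libraries, 3 per group. The ChryM group stands for chrysophanol, a plant anthraquinone, given by oral gavage for 14 days. That these rats also carried the disease model follows from the series title, and neither the dose nor the M in the name is explained in the labels. The Model group was fed a high-fat diet for 4 weeks, injected intraperitoneally with streptozotocin at 50 mg/kg, a toxin of pancreatic beta cells, and, once fasting blood glucose reached 16.7 mmol/L, exposed to chronic unpredictable mild stress for 5 weeks. The Ctrl group held normal rats without the model. All rats arrived at 6 to 8 weeks of age, and their age at tissue collection and any vehicle given to Model and Ctrl are not stated. Diet, streptozotocin and stress were given together, so their effects cannot be told apart.

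Heat shock proteins bind unfolded or aggregating protein. In the cytosol, J-domain proteins deliver clients to HSP70, HSP110 proteins exchange its nucleotide, and some clients pass on to HSP90, while the transcription factor HSF1 raises the inducible members when unfolded protein accumulates. In the ER, BiP (Hspa5) and GRP94 (Hsp90b1) do the like work, calnexin and calreticulin hold glycoproteins by their sugars, and protein disulfide isomerases (Pdia genes) form and shuffle disulfide bonds. Neurons carry high levels of HSP90 and of the constitutive HSP70, Hspa8, and use specialised J-domain proteins at the synapse.

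The libraries were shallow, with 631119 to 866048 counts each, and a tested gene had a median of 19 to 27 counts. Of the 85 genes, 50 had enough counts for a test among 7073 genes tested, and 40 of these passed the count filter in every group taken alone. Another 5 passed in 2 groups (Hspa13, Dnajb12, Hspa12b, Dnajb1 and Hsf1) and 3 in 1 group (Dnajc19 in Model, Dnajc10 in Ctrl, Dnajc4 in ChryM), so the counts below are of tested genes, not of all 85. The strand setting used in counting is not given. The mitochondrial Mt-nd6, which lies alone on its strand, was at a mean of 42036 FPKM (fragments scaled to gene length and library total), against 1659 to 7417 for the 12 genes of the other strand. Counts under a name may therefore include, or consist of, reads from the opposite strand. This holds for members with or without an overlapping gene and was not tested. Of the 50 tested members, 25 overlap another annotated gene, 15 of them one known to run the other way. The labels do not tie libraries to animals, so p-values measure only the spread between these libraries. Beyond counting error that spread was small, with a biological coefficient of variation of 5.5% in the fit. Whether it is a spread between animals is not known.

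Per length, the cytosolic HSP90 Hsp90ab1 was the highest member, with a mean of 464 FPKM over the 9 libraries. The ER lectin calreticulin (Calr) followed with 245 FPKM, the constitutive HSP70 Hspa8 with 203 FPKM and the inducible HSP90 Hsp90aa1 with 148 FPKM. Hsp90b1 had 77.8 FPKM, Dnajc14, a J-domain protein of the ER membrane known to bind dopamine receptors, 75.4 FPKM, the mitochondrial chaperonin lid Hspe1 60.7 FPKM and Hspa5 58.8 FPKM. Hsf1, at 4.72 FPKM, was far below the genes just named. In the order of levels, Hsp90ab1 lay above every other member in each library, while Hsp90b1, Dnajc14 and Hspe1 overlapped between neighbours.

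**Figure D1:**
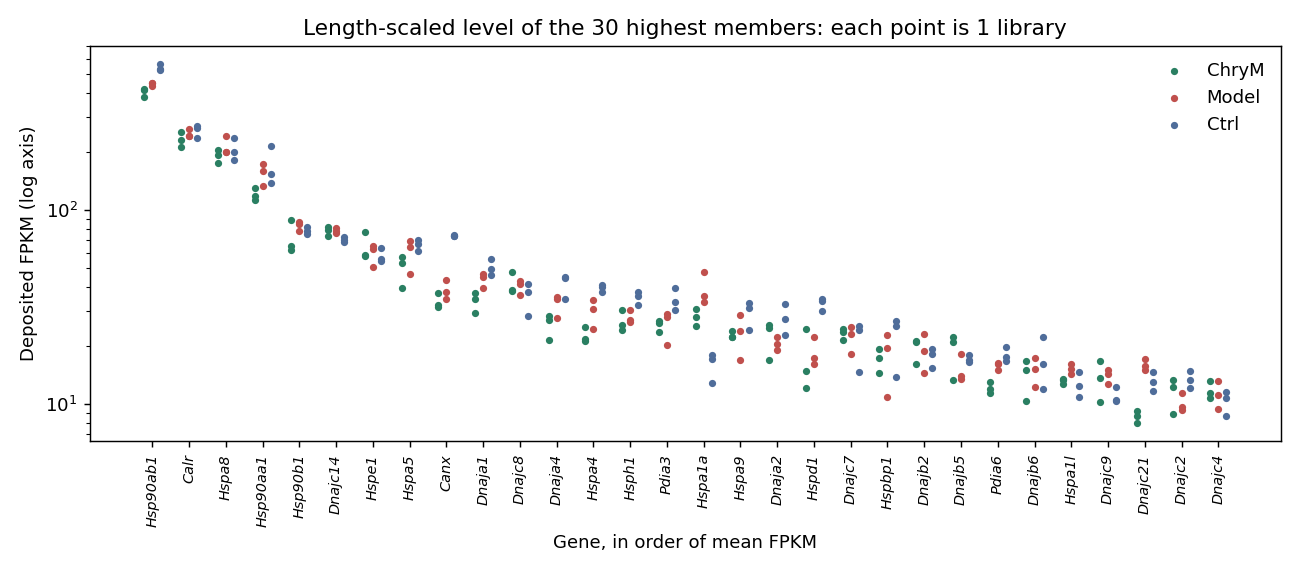
Deposited FPKM (log axis) of the 30 members with the highest mean, in order of that mean, with 1 point per library and the ChryM, Model and Ctrl libraries side by side. Hsp90ab1, Calr, Hspa8 and Hsp90aa1 stand above the rest, and Canx and Hspa1a are among the genes whose Ctrl points separate from those of the other groups.

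A minority of the promoters carry the regulatory letters these families are known for, and 7 are shown because they hold a match and belong to genes described below. A window of 300 bases, 250 before and 50 after the annotated start, was available for 67 of the 85 members and 41 of the tested ones, from RefSeq on the build GRCr8. The window of Hspa1a was among these and held 0 matches to each of the elements searched below. The heat shock element was searched as 3 alternating units, GAANNTTCNNGAA or TTCNNGAANNTTC. It occurred in 5 of the 67 windows (7.46%), against 267 of all 33469 promoters (0.798%). The shorter form of 2 units, GAANNTTC or TTCNNGAA, which the longer form contains, occurred in 16 of the 67 windows (23.9%), against 15.9% of all promoters. The ER stress element, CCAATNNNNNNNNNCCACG on either strand, was present in 5 of the 67 windows (7.46%), against 22 of all promoters (0.0657%), and all 5 were ER genes, of which 18 had a window (27.8%). In these shares each member gave a single window, while all promoters means every window on record. That background was not reduced to a single window per gene or matched to the tested genes. A match is a description of the letters and not a bound site.

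The heat shock element (capitals) lay in the 250 bases before the start of the constitutive HSP70 Hspa8 at chr8:50080264-50080513 on the plus strand, the HSP110 Hsph1 at chr12:10427118-10427367 on the plus strand and the chaperonin lid Hspe1 at chr9:64084077-64084326 on the plus strand, printed 5′ to 3′ along each gene.
Hspa8: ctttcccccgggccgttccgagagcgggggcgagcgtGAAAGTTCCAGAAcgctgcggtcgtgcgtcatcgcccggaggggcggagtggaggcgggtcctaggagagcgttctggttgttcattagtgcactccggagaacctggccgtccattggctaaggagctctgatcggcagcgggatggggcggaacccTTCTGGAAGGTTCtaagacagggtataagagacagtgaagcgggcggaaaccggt
Hsph1: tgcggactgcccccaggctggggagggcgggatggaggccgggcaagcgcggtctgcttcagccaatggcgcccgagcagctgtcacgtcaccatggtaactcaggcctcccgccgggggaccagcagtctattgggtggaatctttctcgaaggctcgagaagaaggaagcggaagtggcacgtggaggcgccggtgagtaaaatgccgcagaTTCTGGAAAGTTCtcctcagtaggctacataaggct
Hspe1: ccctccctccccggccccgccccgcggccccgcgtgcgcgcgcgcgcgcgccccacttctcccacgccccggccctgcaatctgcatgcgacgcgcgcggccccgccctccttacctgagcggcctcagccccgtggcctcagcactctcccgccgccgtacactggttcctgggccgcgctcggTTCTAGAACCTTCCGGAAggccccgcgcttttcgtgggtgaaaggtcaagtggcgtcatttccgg
In Hspe1 the capitals are 2 overlapping matches that begin 65 and 60 bases before the start. The same stretch is the match of Hspd1, which starts on the opposite strand from the shared promoter. The fifth gene, Dnaja1, had its match 10 bases after the start.

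The ER stress element (capitals, with its spacer) lay before the start of Hspa5 at chr3:38452766-38453015 on the plus strand, Hsp90b1 at chr7:23012294-23012543 on the minus strand, Canx at chr10:35157858-35158107 on the minus strand and Calr at chr19:40213117-40213366 on the plus strand.
Hspa5: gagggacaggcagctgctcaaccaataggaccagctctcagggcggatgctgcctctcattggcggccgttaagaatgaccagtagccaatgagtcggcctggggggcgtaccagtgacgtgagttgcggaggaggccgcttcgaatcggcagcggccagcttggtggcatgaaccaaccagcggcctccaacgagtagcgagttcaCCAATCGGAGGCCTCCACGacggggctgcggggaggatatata
Hsp90b1: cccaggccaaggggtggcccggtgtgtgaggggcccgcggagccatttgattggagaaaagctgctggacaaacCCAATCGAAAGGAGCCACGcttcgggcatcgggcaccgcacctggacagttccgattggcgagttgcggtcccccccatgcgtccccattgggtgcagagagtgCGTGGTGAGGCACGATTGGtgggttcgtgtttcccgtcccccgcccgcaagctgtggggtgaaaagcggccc
Canx: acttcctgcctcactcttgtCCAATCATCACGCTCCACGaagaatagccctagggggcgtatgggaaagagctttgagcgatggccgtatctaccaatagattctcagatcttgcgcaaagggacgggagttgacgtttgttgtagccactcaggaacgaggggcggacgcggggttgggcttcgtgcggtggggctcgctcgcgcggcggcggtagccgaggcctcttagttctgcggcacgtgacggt
Calr: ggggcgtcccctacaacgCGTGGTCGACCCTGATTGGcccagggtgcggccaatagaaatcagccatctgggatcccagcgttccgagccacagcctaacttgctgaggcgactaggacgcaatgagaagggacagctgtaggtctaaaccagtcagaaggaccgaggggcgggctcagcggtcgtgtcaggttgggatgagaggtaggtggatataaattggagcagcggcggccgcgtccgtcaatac
Hsp90b1 held 2 matches, and Dnajc3, an inhibitor of the eIF2α kinases, held the fifth gene's match. The 4 printed genes share the element but not their values across the groups: Canx fell in Model and ChryM, while Calr and Hsp90b1 passed the test in none of the comparisons (values below).

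**Figure D2:**
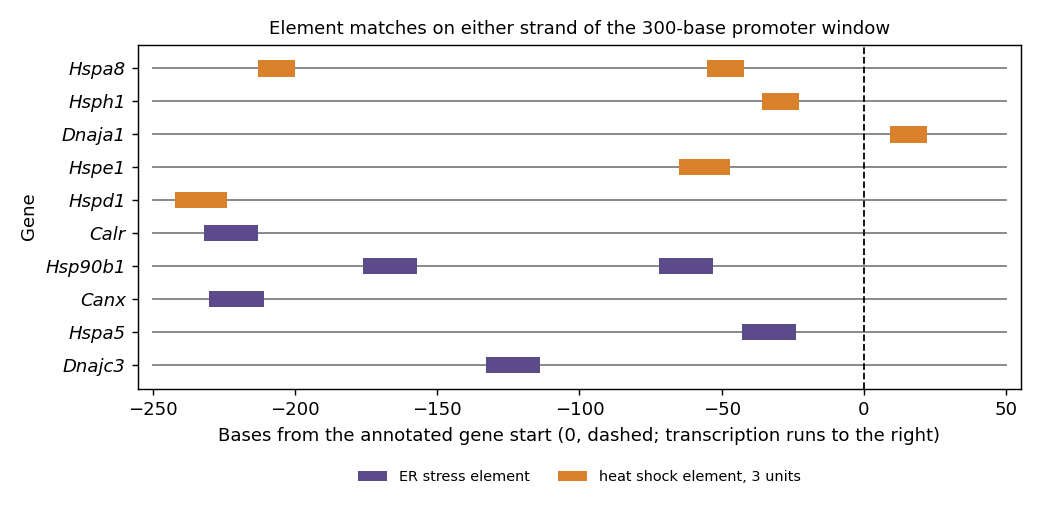
Position of each match, in bases from the annotated gene start (dashed line), for the 10 genes with a 3-unit heat shock element or an ER stress element on either strand of the 300-base window. Hspe1 and Hspd1 share 1 stretch, Hspa8 and Hsp90b1 hold 2 separate matches each, and the match of Dnaja1 lies after the start.

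Across the family, most genes that passed the test in ChryM were lower there, and those that passed in Model over Ctrl went in both directions. The share of all counts that fell on the 85 genes was 0.462% to 0.530% in ChryM, 0.539% to 0.565% in Model and 0.575% to 0.647% in Ctrl, without overlap. With the scaling used below for single genes (trimmed mean of M values, TMM), chosen after the data were seen, the sums were 4913 to 5456 CPM in ChryM, 5807 to 6084 CPM in Model and 5911 to 6300.2 CPM in Ctrl, where ChryM stayed apart and Model and Ctrl overlapped. The 3 comparisons share libraries, and their counts are not independent of one another. Single genes are given below in CPM, counts scaled to the total of the tested genes with TMM factors, and were tested with edgeR's quasi-likelihood test and adjusted by Benjamini-Hochberg over all 7073 genes, with changes on the log2 scale and the standard error (SE) after ±.

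In Model over Ctrl, 6 of the 50 tested members passed the test (12.0%), close to the 12.4% of all tested genes. Hspa1a, Hsf1 and Dnajc14 were higher (6.0%, against 7.04% of all genes), and Canx, Hspd1 and Hspa12b were lower (6.0%, against 5.39%). Of these, Hsf1 did not pass the count filter in Ctrl and Hspa12b did not in Model, so each was tested through groups where it is high. Scaled by library totals, 2 members were higher (4.0%, against 3.90% of all genes) and 7 lower (14.0%, against 9.26%). The 3 Model libraries lay above all Ctrl libraries in 7 members (13.4% of all genes did so) and below them in 7 (12.7% of all genes). The median change of the members was -0.03 and that of all genes -0.02. Among genes with a mean of at least 30 counts, 6 of 26 members passed (23.1%), against 23.9% of such genes. Of these members 1 was higher (3.85%, against 12.0% of such genes) and 5 were lower (19.2%, against 11.9%).

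In ChryM over Model, 6 members passed (12.0%, against 8.27% of all genes), and all were lower: Hsp90aa1, Hspa4, Hspa12a, Hspa1a, Dnajc21 and Dnaja1. Of all genes, 4.41% were lower and 3.86% higher, and scaled by library totals 3.56% were lower and 5.27% higher, with 4 members lower (8.0%). By edgeR no member was higher, and by DESeq2 and limma-voom none was either. At an unadjusted p under 0.05, 1 member was higher (2.0%, against 9.33% of all genes). The ChryM libraries lay below all Model libraries in 11 members (11.7% of all genes) and above them in 1 (11.8% of all genes). The median change of the members was -0.15, beside 0.00 for all genes. The count of 6 among the 50 members fell to 2 without the first Model library or without the second ChryM library, and to 1 by DESeq2, which adjusted p-values for 26 members. Only Hsp90aa1 passed by DESeq2, and only Dnajc21 in a test on FPKM. With a mean of at least 30 counts, 6 of 26 members were lower (23.1%), against 9.61% of such genes. These were not the same 6, since Hsp90ab1 and Hspa8 passed there, Hsp90aa1 did not and Dnajc21 was below that mean.

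In ChryM over Ctrl, 18 members passed (36.0%, against 18.8% of all genes). Only Hspa1a and Hsf1 were higher (4.0%, against 9.83% of all genes), and 16 were lower (32.0%, against 8.96%). Scaled by library totals these counts were again 2 and 16, against 7.35% of all genes higher and 11.6% lower. Hsf1 passed the count filter in ChryM and Model but not in Ctrl, and Dnajc10 in Ctrl alone, so each was tested through groups where it is high. The ChryM libraries lay below all Ctrl libraries in 19 members (15.8% of all genes) and above them in 3 (15.8% of all genes). The median change of the members was -0.22, beside -0.01 for all genes. With a mean of at least 30 counts, 14 of 26 members were lower (53.8%), against 19.2% of such genes. The count of 18 fell to 9 without the second ChryM library, to 11 without the first or the second Ctrl library, and to 8 by DESeq2. DESeq2 ended the calls of Hspa12a, Hspa4l, Hsph1, Dnajb11, Hspa5, Pdia3, Dnaja4 and Dnajc5 and gave no adjusted p for Hsf1 and Dnajc10. With no count filter, Hsph1, Dnajb11, Dnajc10, Hspa5, Pdia3 and Hsf1 did not pass. A test on log2(FPKM + 1), which called 10, ended the calls of Hspa12a, Hspa4l, Hsph1, Hsp90aa1, Dnajb11, Dnajc10, Hspa5, Pdia3 and Hsf1.

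**Figure D3:**
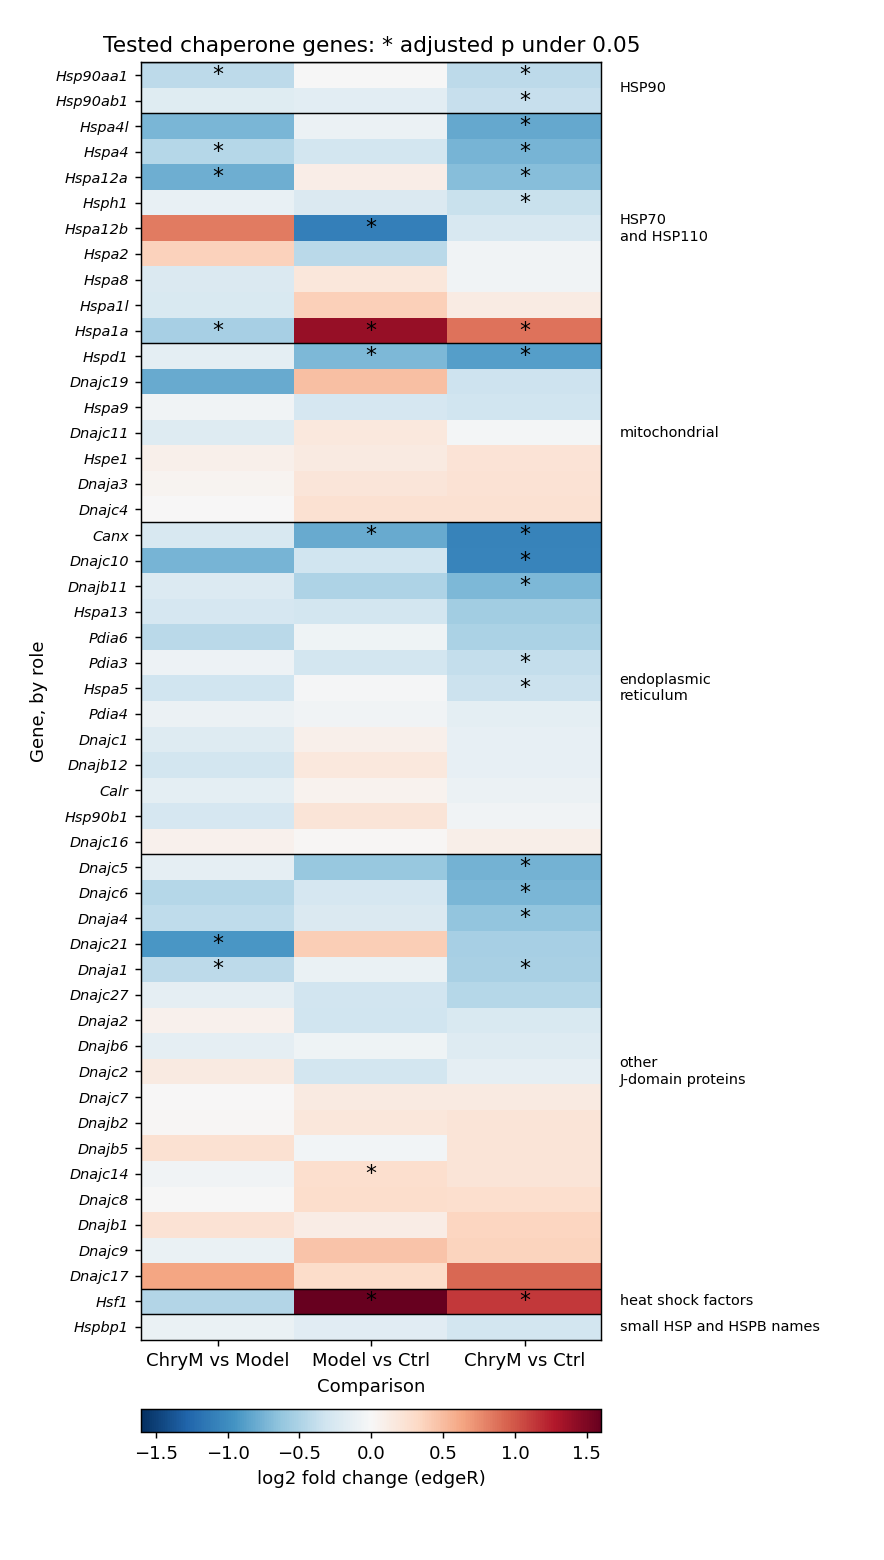
log2 fold change of the 50 tested members (colour, edgeR) in ChryM over Model, Model over Ctrl and ChryM over Ctrl, grouped by role, with an asterisk where the adjusted p was under 0.05. Blue (lower) fills most of the HSP90, HSP70 and ER blocks in ChryM over Ctrl, with Hspa1a and Hsf1 in red.

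Summed by role, the HSP90 pair had 1257 to 1387 CPM of the library total in ChryM, 1493 to 1590 CPM in Model and 1688 to 1915 CPM in Ctrl. No library of one group reached into the range of another. The ER genes together, without Dnajc14, had 1097 to 1332 CPM in ChryM, 1253 to 1403 CPM in Model and 1477 to 1611 CPM in Ctrl. There ChryM and Model overlapped and Ctrl lay above both. The HSP70 and HSP110 genes had 873 to 1004 CPM in ChryM, 1016 to 1148 CPM in Model and 1025 to 1209 CPM in Ctrl, with ChryM alone below the other groups. The mitochondrial genes had 246 to 288 CPM in ChryM, 261 to 286 CPM in Model and 294 to 336 CPM in Ctrl, with Ctrl above both other groups. With TMM scaling, the mitochondrial sums were 262 to 290.4 CPM in ChryM, 278 to 308 CPM in Model and 303 to 329 CPM in Ctrl, and Model and Ctrl overlapped. The other J-domain genes overlapped in every pair of groups, with 1064 to 1219 CPM in ChryM, 1199 to 1215 CPM in Model and 1201 to 1339 CPM in Ctrl. With TMM scaling their sums were 1131 to 1244 CPM in ChryM, 1276 to 1310.3 CPM in Model and 1234 to 1304 CPM in Ctrl, and ChryM lay below Model. The separations named for the HSP90, ER, and HSP70 and HSP110 sums were the same with TMM scaling. In bulk tissue, fewer cells of a type and less RNA per cell cannot be told apart.

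**Figure D4:**
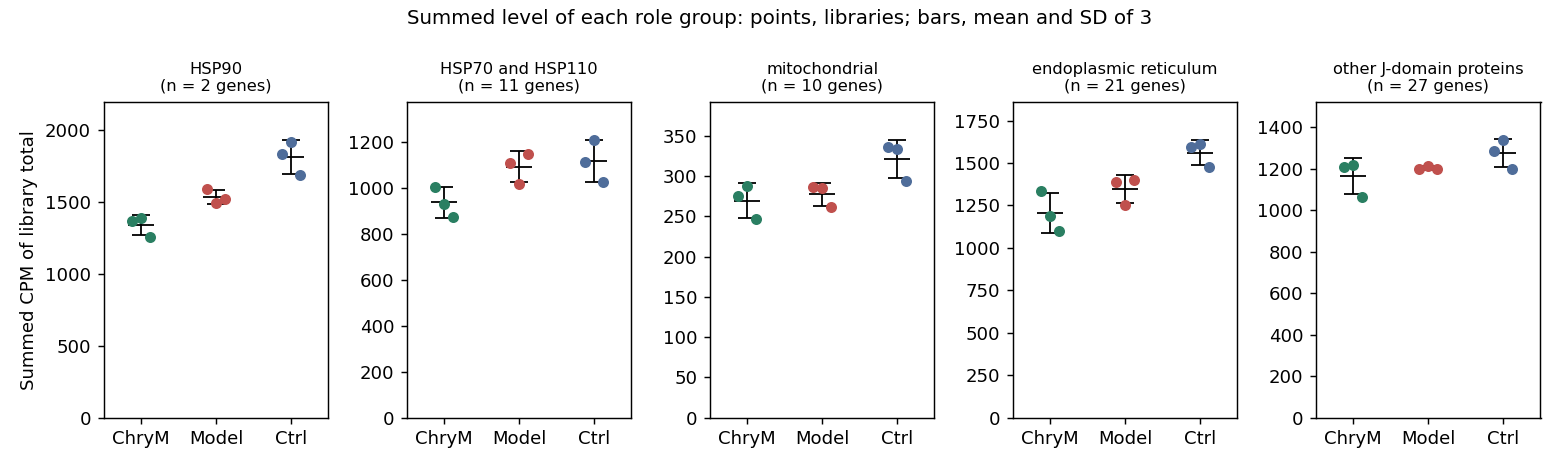
Summed CPM of the library total for the 5 larger role groups, with 1 point per library and bars for the mean and SD of 3 libraries. The HSP90 sums are lowest in ChryM, between in Model and highest in Ctrl without overlap, and the ER sums are highest in Ctrl.

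Hspa1a, the stress-inducible cytosolic HSP70, was higher in both Model and ChryM than in Ctrl, and lower in ChryM than in Model. Hspa1a was at 85.7, 68.8 and 80.3 CPM in the ChryM libraries, 139, 104 and 96.4 CPM in the Model libraries and 45.1, 47.0 and 35.3 CPM in the Ctrl libraries. All Model libraries lay above all ChryM libraries, and these above all Ctrl libraries. The change was 1.39 ± 0.175, adjusted p = 2.61e-11 in Model over Ctrl, 0.86 ± 0.182, adjusted p = 9.18e-05 in ChryM over Ctrl and -0.53 ± 0.154, adjusted p = 0.0146 in ChryM over Model. Both differences from Ctrl passed the test under every alternative that gave a value. The difference between ChryM and Model did not pass without the first Model library (adjusted p = 0.268) or without the second ChryM library (adjusted p = 0.133). Hspa1a overlaps Hspa1l on the opposite strand and has a near-identical copy, Hspa1b, so the split of reads between them is uncertain. Hspa1l, an HSP70 known mainly from testis, was at 35.9 ± 1.86 CPM in ChryM, 42.8 ± 2.86 CPM in Model and 33.0 ± 6.03 CPM in Ctrl (SD, n = 3 each) and passed no test. Hspa1b had 18 counts over all libraries, 7 in ChryM, 5 in Model and 6 in Ctrl.

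Hsf1, the transcription factor that drives the heat shock response, was also higher in Model and in ChryM than in Ctrl, at low counts. Hsf1 was at 16.4, 18.7 and 15.2 CPM in the ChryM libraries, 21.2, 35.9 and 15.1 CPM in the Model libraries and 7.31, 8.44 and 7.07 CPM in the Ctrl libraries. Every ChryM and Model library lay above every Ctrl library, and the second Model library was the highest of all. These levels rest on 11 to 16 counts per ChryM library, 11 to 21 per Model library and 5 to 7 per Ctrl library. Hsf1 did not pass the count filter in Ctrl, the group where it is low. The change was 1.59 ± 0.402, adjusted p = 0.00119 in Model over Ctrl and 1.13 ± 0.409, adjusted p = 0.0323 in ChryM over Ctrl. The test's own error lay below the counting error in both, and the SE given is the counting one. The Model difference did not pass without the second Model library (adjusted p = 0.079), and the ChryM difference did not pass when any 1 ChryM or Ctrl library was left out. The other heat shock factor names were not tested. Hsf2 had 22 counts in ChryM, 16 in Model and 16 in Ctrl. Hsf4 had 13, 4 and 1 counts in ChryM, Model and Ctrl, and Hsf2bp, which codes for a protein that binds HSF2, had 15, 3 and 1. These genes were picked out after their values were seen.

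**Figure D5:**
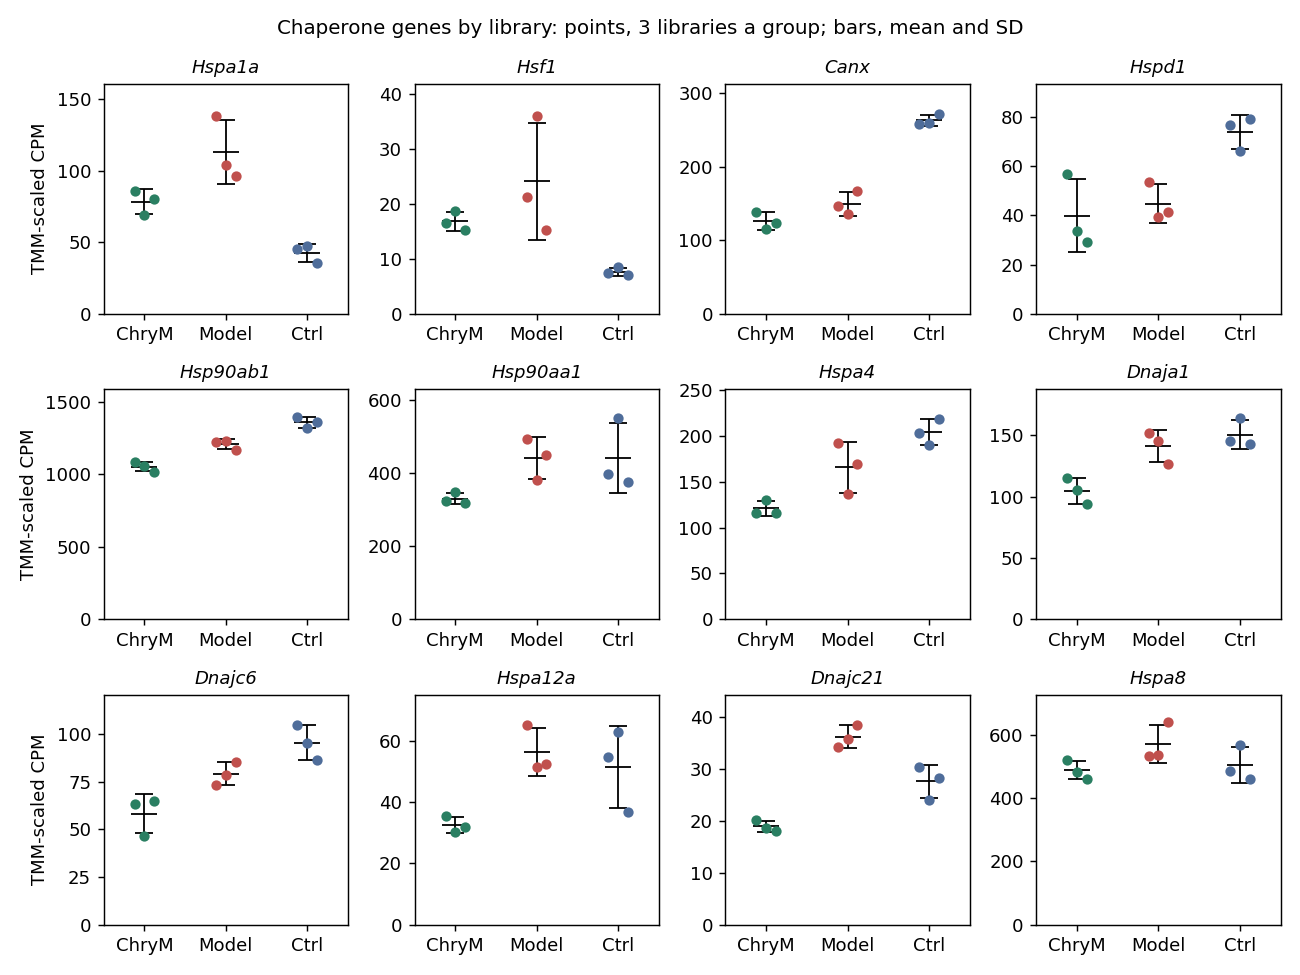
TMM-scaled CPM of 12 members in each library, with ChryM, Model and Ctrl from left to right in every panel and bars for the mean and SD of 3 libraries. Hspa1a and Hsf1 are lowest in Ctrl, Canx and Hspd1 are highest there, and Hsp90aa1, Hspa4, Hspa12a and Dnajc21 are lowest in ChryM.

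Of the 9 tested HSP70 and HSP110 genes, 4 were lower in ChryM than in Ctrl (Hspa4, Hspa4l, Hspa12a and Hsph1) and 1 was higher (Hspa1a), together 55.6%, against 18.8% of all genes. In ChryM over Model 3 were lower (33.3%, against 8.27%), and in Model over Ctrl 1 was higher and 1 lower (22.2%, against 12.4%). Hspa4, an HSP110 that exchanges the nucleotide of HSP70, changed by -0.46 ± 0.126, adjusted p = 0.00810 over Model and -0.75 ± 0.117, adjusted p = 6.52e-08 over Ctrl. Hspa4 was at 116, 131 and 116 CPM in the ChryM libraries, 192, 137 and 169 CPM in the Model libraries and 203, 191 and 219 CPM in the Ctrl libraries. All ChryM libraries lay below all others, while Model and Ctrl overlapped at -0.29 ± 0.114, adjusted p = 0.0812. The difference from Ctrl passed under every alternative, and that from Model did not pass without the first Model library (adjusted p = 0.144). The related Hspa4l averaged 20.8 ± 5.66 CPM in ChryM, 33.8 ± 7.37 CPM in Model and 36.5 ± 5.46 CPM in Ctrl (SD, n = 3 each), with a change of -0.82 ± 0.258, adjusted p = 0.0139 in ChryM over Ctrl that did not pass without the second ChryM or the second Ctrl library. Hsph1, the stress-inducible HSP110, averaged 139.8 ± 17.8 CPM in ChryM, 152 ± 11.8 CPM in Model and 178 ± 9.68 CPM in Ctrl (SD, n = 3 each), and its change in ChryM over Ctrl was -0.35 ± 0.116, adjusted p = 0.0196. That call ended without the second or the third ChryM library or the first Ctrl library.

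Hspa12a and Hspa12b are distant HSP70 relatives, the second known from blood vessel endothelium. Hspa12a was at 35.3, 30.3 and 31.8 CPM in the ChryM libraries, 65.2, 51.3 and 52.3 CPM in the Model libraries and 54.8, 62.7 and 36.8 CPM in the Ctrl libraries. For Hspa12a all ChryM libraries lay below the rest, with -0.79 ± 0.219, adjusted p = 0.00894 over Model and -0.68 ± 0.212, adjusted p = 0.0129 over Ctrl. The first did not pass without the first Model or the second ChryM library, and the second not without the second ChryM, the first Ctrl or the second Ctrl library. Hspa12b was at 20.2, 18.7 and 13.8 CPM in the ChryM libraries, 9.78, 13.7 and 6.88 CPM in the Model libraries and 17.1, 24.1 and 22.6 CPM in the Ctrl libraries. Hspa12b was the one HSP70 gene lower in Model, at -1.09 ± 0.389, adjusted p = 0.0353 over Ctrl, and Model did not overlap with Ctrl or ChryM. This rests on 5 to 8 counts per Model library and 14 to 20 per Ctrl library. Hspa12b passed the count filter in ChryM and Ctrl but not in Model, where it is low. It did not pass the test without the first or the third Model library or the second or the third Ctrl library, by limma-voom, or with no count filter. The constitutive Hspa8, the most abundant HSP70, moved less. Hspa8 was at 521, 484 and 462 CPM in the ChryM libraries, 535, 536 and 640.3 CPM in the Model libraries and 486, 569 and 462 CPM in the Ctrl libraries. Its change was -0.23 ± 0.0841, adjusted p = 0.0790 in ChryM over Model, where the groups did not overlap, and -0.05 ± 0.0833, adjusted p = 0.726 in ChryM over Ctrl, where they did. Hspa2, a testis-enriched HSP70, averaged 24.6 ± 4.24 CPM in ChryM, 18.7 ± 6.44 CPM in Model and 25.7 ± 4.90 CPM in Ctrl (SD, n = 3 each) and passed no test.

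Both cytosolic HSP90 genes were lower in ChryM than in Ctrl. Hsp90ab1 was at 1084, 1053 and 1017 CPM in the ChryM libraries, 1218, 1230.0 and 1166 CPM in the Model libraries and 1395, 1315 and 1360.0 CPM in the Ctrl libraries. For the constitutive Hsp90ab1 no library of one group reached into another, with ChryM lowest and Ctrl highest. The change was -0.37 ± 0.0712, adjusted p = 1.86e-05 in ChryM over Ctrl, which held under every alternative, -0.19 ± 0.0727, adjusted p = 0.0818 in ChryM over Model and -0.17 ± 0.0716, adjusted p = 0.104 in Model over Ctrl. Hsp90aa1 was at 324, 348 and 318 CPM in the ChryM libraries, 494, 379 and 450.2 CPM in the Model libraries and 397, 549.9 and 375 CPM in the Ctrl libraries. The inducible Hsp90aa1 was low in ChryM alone, and its Model and Ctrl libraries overlapped, at -0.00 ± 0.0962, adjusted p = 0.995. The change was -0.42 ± 0.10, adjusted p = 0.00251 in ChryM over Model and -0.42 ± 0.0973, adjusted p = 6.95e-04 in ChryM over Ctrl. Leaving out the second Ctrl library, the highest of the 9, ended the call against Ctrl and no left-out library ended that against Model. Scaling by library totals alone ended both calls, and a minimum mean of 30 counts ended that against Model.

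Among the ER genes, calnexin (Canx), the membrane lectin that retains glycoproteins until they fold, had the smallest p. Canx was at 139, 115 and 123 CPM in the ChryM libraries, 147, 135 and 167 CPM in the Model libraries and 258, 259 and 271 CPM in the Ctrl libraries. Every Ctrl library lay far above every library of the other groups, which overlapped each other. The change was -0.80 ± 0.111, adjusted p = 1.28e-09 in Model over Ctrl, -1.06 ± 0.110, adjusted p = 6.58e-16 in ChryM over Ctrl and -0.26 ± 0.127, adjusted p = 0.232 in ChryM over Model. Both calls against Ctrl held under every alternative. Canx overlaps a long noncoding RNA on the opposite strand, LOC120095092. Calr, its soluble relative, was at 476 ± 35.4 CPM in ChryM, 529 ± 26.7 CPM in Model and 507 ± 23.6 CPM in Ctrl (SD, n = 3 each), with a change of 0.06 ± 0.0832, adjusted p = 0.754 in Model over Ctrl and -0.09 ± 0.0821, adjusted p = 0.476 in ChryM over Ctrl. Of the 13 ER genes tested, 12 had a change below 0 in ChryM over Ctrl, with a median of -0.34, and 5 passed (38.5%, against 18.8% of all genes). Of all 7073 genes, 3637 had a change below 0. Dnajc14, also of the ER membrane, was grouped with the other J-domain genes and is not among the 13. It went the other way, at 0.21 ± 0.0897, adjusted p = 0.0890 in ChryM over Ctrl, with all ChryM libraries above all Ctrl libraries.

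BiP (Hspa5), the ER HSP70 whose level is widely used as a readout of ER stress, passed the test in ChryM over Ctrl only. Hspa5 was at 153, 139 and 109 CPM in the ChryM libraries, 192, 129.8 and 178 CPM in the Model libraries and 178, 169 and 163 CPM in the Ctrl libraries. The change was -0.02 ± 0.120, adjusted p = 0.945 in Model over Ctrl and -0.34 ± 0.120, adjusted p = 0.0312 in ChryM over Ctrl, where all ChryM libraries lay below all Ctrl libraries. Dnajb11, the BiP co-chaperone ERdj3, averaged 24.5 ± 3.39 CPM in ChryM, 28.6 ± 0.733 CPM in Model and 39.6 ± 11.3 CPM in Ctrl (SD, n = 3 each) and changed by -0.72 ± 0.240, adjusted p = 0.0227 in ChryM over Ctrl, although the groups overlapped at the third Ctrl library. Dnajc10, the reductase ERdj5, averaged 9.30 ± 2.94 CPM in ChryM, 15.9 ± 5.11 CPM in Model and 19.3 ± 4.57 CPM in Ctrl (SD, n = 3 each) and changed by -1.06 ± 0.374, adjusted p = 0.0293 on 6 to 10 counts per ChryM library and 10 to 19 per Ctrl library. Dnajc10 passed the count filter in Ctrl alone, the group where it is highest. These 3 calls each ended when the second ChryM, the third ChryM, the first Ctrl or the second Ctrl library was left out.

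Pdia3, the disulfide isomerase that works with calnexin and calreticulin, averaged 82.7 ± 6.16 CPM in ChryM, 86.9 ± 16.1 CPM in Model and 108 ± 14.5 CPM in Ctrl (SD, n = 3 each) and changed by -0.38 ± 0.145, adjusted p = 0.0485 in ChryM over Ctrl. This call was the weakest: it ended when the third Model library or any of 5 others was left out, the exception among ChryM and Ctrl being the second Ctrl library. It also ended under 8 of the other settings: RLE scaling factors, DESeq2, limma-voom, both tests on FPKM, no count filter, a spread estimated without robust weights and the replicate number as a block. Pdia6, which acts on BiP clients and the stress sensors of the ER, averaged 40.04 ± 2.46 CPM in ChryM, 54.2 ± 2.90 CPM in Model and 57.2 ± 6.91 CPM in Ctrl (SD, n = 3 each) and did not pass (-0.50 ± 0.196, adjusted p = 0.0555 in ChryM over Ctrl), though ChryM lay below all libraries of the other groups. GRP94 (Hsp90b1), the ER HSP90, averaged 238 ± 46.5 CPM in ChryM, 285 ± 14.3 CPM in Model and 248 ± 4.86 CPM in Ctrl (SD, n = 3 each). Its change was 0.20 ± 0.101, adjusted p = 0.203 in Model over Ctrl, where Model lay above all Ctrl libraries, and -0.06 ± 0.101, adjusted p = 0.725 in ChryM over Ctrl.

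Of the mitochondrial chaperonin pair, Hspd1 passed the test and Hspe1 did not. Hspd1 was at 56.7, 33.8 and 29.1 CPM in the ChryM libraries, 53.8, 39.3 and 41.3 CPM in the Model libraries and 76.7, 66.3 and 79.2 CPM in the Ctrl libraries. For Hspd1, the HSP60 barrel, all Ctrl libraries lay above all others, with a change of -0.72 ± 0.195, adjusted p = 0.00478 in Model over Ctrl and -0.88 ± 0.189, adjusted p = 1.29e-04 in ChryM over Ctrl. Both calls held under every alternative that gave a value. Hspe1 was at 53.0, 68.8 and 55.4 CPM in the ChryM libraries, 61.9, 59.8 and 48.2 CPM in the Model libraries and 48.7, 47.0 and 58.0 CPM in the Ctrl libraries. For its lid Hspe1 all groups overlapped, with 0.14 ± 0.197, adjusted p = 0.740 in Model over Ctrl and 0.22 ± 0.185, adjusted p = 0.456 in ChryM over Ctrl. The difference between the 2 genes was not tested. They start from a shared promoter, printed above, and overlap on opposite strands in the annotation. Hspa9, the mitochondrial HSP70 mortalin, averaged 75.4 ± 2.02 CPM in ChryM, 79.8 ± 20.9 CPM in Model and 93.8 ± 12.96 CPM in Ctrl (SD, n = 3 each) and passed no test (-0.32 ± 0.154, adjusted p = 0.134 in ChryM over Ctrl). Hspd1 was the only one of the 7 tested mitochondrial genes to pass (14.3%, against 12.4% of all genes in Model over Ctrl and 18.8% in ChryM over Ctrl).

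Of the 17 other J-domain genes tested, 1 passed in Model over Ctrl (5.88%, against 12.4% of all genes), 2 in ChryM over Model (11.8%, against 8.27%) and 4 in ChryM over Ctrl (23.5%, against 18.8%). Dnaja1, a type A partner of HSP70, was lower in ChryM than in either group. Dnaja1 was at 115, 105 and 94.1 CPM in the ChryM libraries, 152, 145 and 127 CPM in the Model libraries and 145, 164 and 143 CPM in the Ctrl libraries. No ChryM library reached the Model or Ctrl range, and the change was -0.42 ± 0.134, adjusted p = 0.0294 over Model and -0.52 ± 0.127, adjusted p = 7.95e-04 over Ctrl. The call against Ctrl held under every alternative, and that against Model ended without the first or the second Model library, without the second or the third ChryM library, with no count filter and when scaled by library totals. Its relative Dnaja4 averaged 48.6 ± 7.62 CPM in ChryM, 64.1 ± 8.26 CPM in Model and 75.0 ± 8.65 CPM in Ctrl (SD, n = 3 each) and changed by -0.64 ± 0.178, adjusted p = 0.00467 in ChryM over Ctrl, a call that ended without the first ChryM library and by DESeq2.

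Dnajc6 and Dnajc5, J-domain genes of the synapse, were lower in ChryM than in Ctrl. Dnajc6 was at 63.0, 46.7 and 65.0 CPM in the ChryM libraries, 73.4, 78.6 and 85.4 CPM in the Model libraries and 105, 95.3 and 86.2 CPM in the Ctrl libraries. Dnajc6, auxilin, which strips clathrin from vesicles, was lowest in ChryM and highest in Ctrl without overlap between any groups. Its change was -0.73 ± 0.161, adjusted p = 2.11e-04 in ChryM over Ctrl, held under every alternative, -0.46 ± 0.175, adjusted p = 0.0933 in ChryM over Model and -0.27 ± 0.158, adjusted p = 0.300 in Model over Ctrl. Dnajc5, the cysteine string protein of synaptic vesicles, averaged 29.9 ± 6.70 CPM in ChryM, 32.4 ± 7.22 CPM in Model and 50.2 ± 4.03 CPM in Ctrl (SD, n = 3 each). It changed by -0.76 ± 0.218, adjusted p = 0.00606 in ChryM over Ctrl, a call that ended without the second ChryM library and with DESeq2, and by -0.61 ± 0.225, adjusted p = 0.0549 in Model over Ctrl, where Model lay below all Ctrl libraries. Dnajc6 overlaps 2 long noncoding RNAs and Dnajc5 overlaps 1, all on the opposite strand.

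Dnajc21, a J-domain protein of ribosome assembly, had the largest fall of any tested member in ChryM over Model. Dnajc21 was at 20.2, 18.7 and 18.0 CPM in the ChryM libraries, 34.2, 35.9 and 38.6 CPM in the Model libraries and 30.5, 24.1 and 28.3 CPM in the Ctrl libraries. The groups did not overlap, with Model highest and ChryM lowest, and the change was -0.93 ± 0.276, adjusted p = 0.0146 in ChryM over Model. It did not pass without the third Model or the second ChryM library. Dnajc14 was higher in Model than in Ctrl. Dnajc14 was at 363, 369.7 and 347 CPM in the ChryM libraries, 388, 366 and 370.4 CPM in the Model libraries and 298, 304 and 335 CPM in the Ctrl libraries. The change was 0.26 ± 0.0920, adjusted p = 0.0400, it overlaps Tmem198b on the opposite strand, and leaving out any Model library, the first Ctrl library or the second Ctrl library ended the call. Scaling by library totals, no count filter, a minimum mean of 30 counts and a test on FPKM ended it too. Dnajc8, a J-domain protein that associates with splicing factors, averaged 100.2 ± 11.3 CPM in ChryM, 101 ± 8.53 CPM in Model and 82.8 ± 13.8 CPM in Ctrl (SD, n = 3 each) and passed no test. Dnajb1, the stress-inducible HSP40 and a classical target of HSF1, averaged 18.9 ± 3.29 CPM in ChryM, 16.2 ± 2.99 CPM in Model and 14.9 ± 2.56 CPM in Ctrl (SD, n = 3 each) and did not pass either (0.12 ± 0.357, adjusted p = 0.899 in Model over Ctrl), and was picked out for that role.

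No small heat shock protein among the members had enough counts for a test. The Hspb name with the most counts was Hspbp1, a nucleotide exchange factor of HSP70 and no small heat shock protein, at 26.9 ± 3.37 CPM in ChryM, 29.1 ± 10.1 CPM in Model and 33.6 ± 11.5 CPM in Ctrl (SD, n = 3 each), which passed no test. Hspb6 had 14, 4 and 7 counts in the ChryM libraries, 8, 10 and 9 in Model and 6, 5 and 2 in Ctrl. All Model libraries were above all Ctrl libraries, and the ratio of summed counts per library total was 2.35 in Model over Ctrl (exact 95% interval 1.17 to 4.96) and 1.83 in ChryM over Ctrl (0.904 to 3.90). Such intervals cover counting error only. Hspb1 (HSP27) had 5 counts in ChryM, 15 in Model and 12 in Ctrl, and Hspb8 had 13, 10 and 13. Hspbap1 had 25 counts in ChryM, 15 in Model and 14 in Ctrl. Hspb1 and Hspb8 were picked out after their values were seen.

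In all, 35 members were not tested. Of these, 4 had no count in any library (Hspb3, Dnajb8, Dnajc5b and Dnajc5g), 22 had 1 to 44 counts over the 9 libraries and 9 had 45 to 70. Besides Hspb6, Hspbap1 and Hsf2, those 9 were Dnajc12, Dnajb4, Dnajc15, Dnajb9, Dnajb13 and Dnajc24. Dnajc12 had 27 counts in ChryM, 25 in Model and 18 in Ctrl, and Dnajc15, a J-domain protein of the inner mitochondrial membrane, had 24, 14 and 19. Dnajb9, the BiP co-chaperone ERdj4 and a target of the unfolded protein response, had 14 counts in ChryM, 18 in Model and 23 in Ctrl. Dnajb4 had 22 counts in ChryM, 14 in Model and 25 in Ctrl, Dnajb13 24, 11 and 20, and Dnajc24 13, 15 and 18. For these 6 genes every interval of the ratio between groups included 1.

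Genes that work with the chaperones were taken from lists of their known roles. Of 26 tested chaperone partners outside the named families, 2 were higher in Model than in Ctrl (7.69%, against 7.04% of all genes), the HSP70 exchange factor Bag1 (0.54 ± 0.195, adjusted p = 0.0480) and the immunophilin Fkbp8 (0.34 ± 0.0925, adjusted p = 0.00491), and none was lower. In ChryM over Model 1 passed (3.85%, against 8.27% of all genes), higher in ChryM: the small heat shock protein Cryab, which the name rule does not take, with 47.4 ± 8.45 CPM in ChryM, 17.5 ± 3.32 CPM in Model and 17.8 ± 3.61 CPM in Ctrl (SD, n = 3 each) (1.42 ± 0.282, adjusted p = 1.83e-05). In ChryM over Ctrl 3 were higher (Bag1, Cryab and Fkbp8) and 1 lower (Hsbp1, which binds HSF1), together 15.4%, against 18.8% of all genes. The median change of this list was -0.03 in ChryM over Ctrl, beside -0.22 for the members. Of 12 chaperonin (TRiC) and prefoldin genes, 1 passed in each comparison (8.33%, against 12.4% of all genes in Model over Ctrl, 8.27% in ChryM over Model and 18.8% in ChryM over Ctrl). The prefoldin subunit Pfdn2 was higher in Model than in Ctrl (0.34 ± 0.0697, adjusted p = 9.90e-05) and lower in ChryM than in Model (-0.33 ± 0.0696, adjusted p = 2.44e-04), and Pfdn6 was higher in ChryM than in Ctrl (0.61 ± 0.198, adjusted p = 0.0184).

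Of 26 further ER folding genes, 3 were lower in Model than in Ctrl (11.5%, against 5.39% of all genes): P4hb, a disulfide isomerase (-0.68 ± 0.234, adjusted p = 0.0377), Selenof (-1.03 ± 0.288, adjusted p = 0.00534) and Rcn1 (-0.89 ± 0.306, adjusted p = 0.0361). The ER oxidase Ero1a was lower in ChryM than in Model (-1.01 ± 0.282, adjusted p = 0.00839), 1 of the 26 (3.85%, against 4.41% of all genes). In ChryM over Ctrl, Fkbp2 and Selenom were higher and Calu and Serp1 lower (15.4%, against 18.8%), and the list's median of -0.27 was near the -0.34 of the ER members. Of 16 tested genes of the unfolded protein response and ER-associated degradation, Creb3 was higher in Model (0.43 ± 0.0919, adjusted p = 1.57e-04) and in ChryM (0.53 ± 0.0883, adjusted p = 4.27e-07) than in Ctrl. Wfs1, an ER membrane protein that also marks CA1 pyramidal neurons, had 86.7 ± 12.7 CPM in ChryM, 25.7 ± 4.17 CPM in Model and 74.9 ± 16.9 CPM in Ctrl (SD, n = 3 each). Its change was -1.52 ± 0.231, adjusted p = 8.92e-09 in Model over Ctrl and 1.73 ± 0.228, adjusted p = 1.48e-11 in ChryM over Model, and Atf5 was higher in ChryM than in Model (0.59 ± 0.197, adjusted p = 0.0427). No other gene of that list passed, and the shares called were 12.5% in Model over Ctrl, 12.5% in ChryM over Model and 6.25% in ChryM over Ctrl, against 12.4%, 8.27% and 18.8% of all genes. Of the stress response genes reported here, Ubb was higher in ChryM than in Model (0.28 ± 0.0868, adjusted p = 0.0269) and than in Ctrl (0.41 ± 0.0854, adjusted p = 6.93e-05), and Eef1a1 was lower in Model than in Ctrl (-0.27 ± 0.0804, adjusted p = 0.0112).

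Summed markers of several other cell types also differed between the groups, and the lists did not share 1 pattern. The summed level of 10 choroid plexus genes, none at 0 throughout, was 72.7 to 86.9 CPM in ChryM, 33.3 to 44 CPM in Model and 1773 to 1835 CPM in Ctrl. Of the 4 tested choroid plexus genes, all 4 were lower in Model and in ChryM than in Ctrl. The 10 myelin genes had 15068 to 16484 CPM in ChryM, 8508 to 9422 CPM in Model and 15545 to 16656 CPM in Ctrl, and 8 neuronal genes had 2237 to 2353 CPM in ChryM, 2502 to 2601 CPM in Model and 2463 to 2771 CPM in Ctrl. Lists low in both ChryM and Model, as Canx and Hspd1 were, also included the 8 meningeal and fibroblast genes, with 37.8 to 40.4 CPM in ChryM, 36.4 to 46.6 CPM in Model and 233 to 263 CPM in Ctrl, and 3 erythrocyte genes, with 99.0 to 107 CPM in ChryM, 65.1 to 84.0 CPM in Model and 330.1 to 358 CPM in Ctrl. The neuronal list was low in ChryM alone, with Model and Ctrl overlapping. So were 8 microglial genes, with 107 to 128 CPM in ChryM, 158 to 180.2 CPM in Model and 159 to 186 CPM in Ctrl. Also low in ChryM alone, 7 endothelial and pericyte genes had 25.7 to 43.9 CPM in ChryM, 47.5 to 75.1 CPM in Model and 66.0 to 74.7 CPM in Ctrl. The 7 astrocyte genes had 1381 to 1412 CPM in ChryM, 1437 to 1499 CPM in Model and 1507 to 1772 CPM in Ctrl, and 5 oligodendrocyte precursor genes had 176 to 195 CPM in ChryM, 158 to 167 CPM in Model and 238 to 258 CPM in Ctrl. In ChryM over Ctrl, 4 of 8 neuronal genes were lower and 1 higher, and 4 of 7 astrocyte genes were lower, against 8.96% of all genes lower and 9.83% higher. Of 11 immediate early genes, which respond to activity and handling, Npas4 was at 0, and the sum was 229 to 288 CPM in ChryM, 227 to 265 CPM in Model and 248 to 285 CPM in Ctrl, which overlapped in all groups. The part of these cell types in the falls of Canx, Hspd1 and the HSP90 and HSP70 genes was not tested.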

How the data were processed

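Poly(A) RNA of rat hippocampus was sequenced from strand-specific (dUTP) libraries, per the labels' protocols. The authors deposited whole-number read counts per gene, and a second table of FPKM with a gene length, per the file headers. Dividing each count by length and total gave the deposited FPKM in 100% of values, so both tables hold 1 measurement. Per the submitters' processing notes, HISAT2 and DESeq2 were used, with no version or role. Neither build nor annotation, and neither the counting program nor its strand option, is given in the sources used here.

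Members were matched by gene name, and IDs without a name stayed in the fit (21.99% to 24.58% of counts). Genes were filtered with filterByExpr (count minimum 10), scaled with TMM (factors 0.9557 to 1.065) and fitted on all 9 libraries with group as the sole term, leaving 6 residual degrees of freedom. The fit used edgeR 4.0.16 (robust glmQLFit, glmQLFTest, two-sided) in R 4.3.3, with p adjusted by Benjamini-Hochberg over 7073 genes and called under 0.05. The SE printed is the larger of the test's and the counting error. Of 30 member calls, 6 had a test error below counting error, and their p-values may be too small. CPM of single genes are TMM-scaled on the total of the tested genes, and role and marker sums are CPM of the library total. Only the edgeR fit was run on simulated counts, for Model over Ctrl, with 200 changed genes planted. It recovered 18% of those planted at 1.25-fold, 24% at 1.5-fold, 72% at 2-fold and 88% at 4-fold. Of the unchanged genes, 5 were called. The other steps were not run on simulated counts.

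Named are members called in any comparison, the 2 with the highest mean FPKM per role, and untested members with a mean of at least 5 counts. Others are marked where named. The members and all lists were chosen with earlier results of these data known. Replicate numbers were not treated as pairs. Deviations of same-numbered libraries correlated at -0.030 to 0.042 over 9 pairs, and those of differently numbered libraries at -0.042 to 0.063 over 18. At such low counts, deviations hold much counting error, so this cannot exclude a pairing. DESeq2 1.42.0, limma 3.58.1 and other settings were tried as alternatives. Gene overlaps were read by symbol from RefSeq (GRCr8), in which all 85 members were found. Protein sequences were not used here. In the stress response list, 1 gene is not reported here.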

Additional observations from a re-analysis of the deposited data

How the results depend on the processing

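Over 20 other settings, 1569 values were computed for the 27 named tested members: 1424 kept their side of the threshold, 118 fell out of it and 27 came past it. In 36 values of 14 genes the direction changed, none of them past the threshold there or in the report, and they lay between -0.07 and 0.20. With library totals these were Calr and Hspa12a in Model over Ctrl and Dnajc14 in ChryM over Model. Of the 30 calls of members, 10 held under every alternative that gave a value (Hspa1a, Canx and Hspd1 in Model over Ctrl, and Hspa1a, Hspa4, Hsp90ab1, Canx, Hspd1, Dnaja1 and Dnajc6 in ChryM over Ctrl), and 20 were lost under at least 1. The members called in Model over Ctrl, 6 in the report, were 2 by DESeq2. In ChryM over Model, also 6, they were 1 by DESeq2 and 1 on log2(FPKM + 1) or log2(FPKM + 0.1). In ChryM over Ctrl, 18 in the report, they were 8 by DESeq2 and 10 on log2(FPKM + 1). Leaving out 1 library gave 4 to 6, 2 to 9 and 9 to 18 calls in these comparisons, and the lone exception to lower calls in ChryM over Model was 1 higher member without the second Model library. Of all genes, 879, 585 and 1329 were called in Model over Ctrl, ChryM over Model and ChryM over Ctrl, against 440, 262 and 591 by DESeq2, 557, 360 and 799 on log2(FPKM + 1) and 509, 349 and 762 on log2(FPKM + 0.1). DESeq2 gave an adjusted p for only 1529, 2832 and 4461 of all genes, and its calls were 28.8%, 9.25% and 13.2% of these. By edgeR the shares were 12.4%, 8.27% and 18.8% of 7073 genes. Among members, DESeq2 gave an adjusted p for 13, 26 and 38. Scaling by library totals moved the median of all genes by -0.12, 0.06 and -0.07 and the members' medians to -0.15, -0.10 and -0.29, and called 276, 373 and 520 of all genes higher and 655, 252 and 819 lower, against 498, 273 and 695 higher and 381, 312 and 634 lower in the report. A fit with the replicate number as a block called 7, 7 and 17 members: it added Dnajc5 and Hsp90ab1 in the first 2 comparisons and ended the call of Pdia3 in the last. Only a shared number links these samples, whose same-numbered deviations correlated within the range of the others, which cannot exclude a pairing at these counts. At 19 to 27 counts for the median tested gene, small changes were not detectable.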
